A study of Mus musculus with 12 samples.

Results

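The 39 genes of the 4 Hox clusters were followed in C2C12, a mouse myoblast cell line whose cells leave the cell cycle and fuse into myotubes when serum is lowered. Members were the rows of the counts table whose symbol is Hox, a cluster letter from a to d and a number, 39 of 21232 rows. RNA-seq was run on 12 libraries in 4 groups of 3 replicates, labelled A, B and C. All cells carried the label strain C57BL/6. The proliferation group was dividing myoblasts in growth medium at 0 h, and the control group was taken at 48 h in differentiation medium. The TNF group was differentiated for 48 h with the inflammatory cytokine TNF alpha at 10 ng/ml. In the Fbxl2 siRNA group, cells at 48 h of differentiation had received siRNA against Fbxl2, whose product is a substrate-binding F-box subunit of a ubiquitin ligase. The labels do not say whether the other groups received a non-targeting siRNA, nor whether A, B and C were separate cultures, so the spread behind the p-values may be technical.

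Hox genes encode homeodomain transcription factors that give cells their position along the body axis. In each cluster the genes lie in order of their paralogue number, with low numbers expressed towards the head and high numbers towards the tail and the tips of the limbs. HoxA and HoxD genes with high numbers pattern the limb, and adult muscle-derived cells often keep a Hox profile that reflects where in the body they came from. Trithorax group (MLL) complexes hold active Hox genes on, Polycomb complexes keep silent ones off, and proteins of the TALE class (Pbx, Meis and Pknox) bind DNA with Hox proteins.

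Library totals ran from 26416978 to 32917763 counts. Values are given as CPM, the count relative to the library total scaled by its TMM factor, and as mean ± SD (n = 3). The target of the siRNA, Fbxl2, was at 32.9 ± 1.30 CPM in control and 22.2 ± 1.52 CPM in Fbxl2 siRNA libraries, a log2 fold change of -0.57 (adjusted p = 1.67e-07 in edgeR). All 6 myoblast markers (such as Myod1 and Des) had counts, with sums of 1597 to 2804 CPM by group. The 5 of 6 differentiated muscle markers found in the table summed to 47.3 to 2149 CPM. All 5 were called higher in control than in proliferation, and all 5 lower in TNF and in Fbxl2 siRNA than in control. The groups therefore differ in muscle gene levels, and the part of that in the Hox differences was not tested. In bulk RNA, fewer cells of a type and less RNA per cell cannot be told apart. Over all genes tested, 77.2% were called in control against proliferation, 54.6% in TNF against control and 63.9% in Fbxl2 siRNA against control. Counts of called markers, those of muscle included, are to be read beside these shares. Some markers of other cell types were called too. All 5 fibroblast markers had a count and summed to 538 to 2318 CPM by group, with Thy1 at 1 count in all. Of 4 tested, 3 were called higher in control than in proliferation, 1 higher and 2 lower with TNF than in control, and 1 higher and 2 lower with Fbxl2 siRNA. Dcn had group means of 29.3 CPM in proliferation, 488 in control, 119 in TNF and 394 in Fbxl2 siRNA, and Col1a1 of 494, 1813, 1971 and 1215 CPM. The 4 neural markers summed to 1418 to 1755 CPM, nearly all from Nes and Tubb3, both called in all 3 of these comparisons, while Sox2 and Elavl3 had 17 and 8 counts. Macrophage markers (4 of 5 with a count) summed to 1.41 to 2.87 CPM, with Adgre1 at 0. Csf1r was called higher in control than in proliferation, at a log2 fold change of 1.66. Lyz2 had means of 0.0124 CPM in proliferation and 0.564 CPM in control. The first lies below 3 counts in a library, so no fold is given. Lyz2 passed the filter on low counts mainly through control, where it was highest, so its call is not used. Of 3 macrophage markers tested, 0 were called higher and 2 lower with TNF than in control, and likewise with Fbxl2 siRNA, Lyz2 among the 2 each time. Epithelial markers (3 of 4 with a count) summed to 1.12 to 2.70 CPM, with Epcam at 0. Cdh1 was called higher in control than in proliferation (log2 fold change 1.13) and lower with TNF than in control (-0.98). Krt8 had means of 0.872 CPM with Fbxl2 siRNA and 0.109 CPM in control. It passed the filter on low counts mainly through the Fbxl2 siRNA group, so its call is not used. The control mean lies near the level of 3 counts in a library, so no fold is given. Endothelial markers (4 of 4) summed to 0.766 to 2.52 CPM and adipocyte markers (4 of 4) to 3.21 to 13.4 CPM, with 1 gene of each list tested. Tek was called higher in control than in proliferation (2.49) and lower with TNF than in control (-1.95). Pparg, nearly all of the adipocyte sum, was called in all 3 comparisons, at -1.14, -0.94 with TNF and 0.62 with Fbxl2 siRNA. Adipoq and Plin1 had 4 and 1 counts. The part of these differences in the Hox results was not tested.

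Detection was set at 10 counts summed over the 12 libraries, and 26 of the 39 genes reached it. All 11 HoxA genes and all 9 HoxC genes were detected, with 35118 and 43220 counts in all. In HoxB, 6 of 10 genes were detected and the cluster held 613 counts. None of the 9 HoxD genes had a count in any library. Together the Hox genes took 78951 counts, 0.0227% of the total. The lowest detected gene was Hoxb13 with 12 counts, and the highest undetected genes were Hoxb2, Hoxb8 and Hoxb9 with 7 counts each. Hoxb1, an early hindbrain gene, had 5 counts. Of the 26 detected genes, 22 passed the filter on low counts and could be tested: all of HoxA and HoxC, and Hoxb3 and Hoxb4. The other 4 were Hoxb5, Hoxb6, Hoxb7 and Hoxb13, with 27, 68, 37 and 12 counts.

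**Figure D1:**
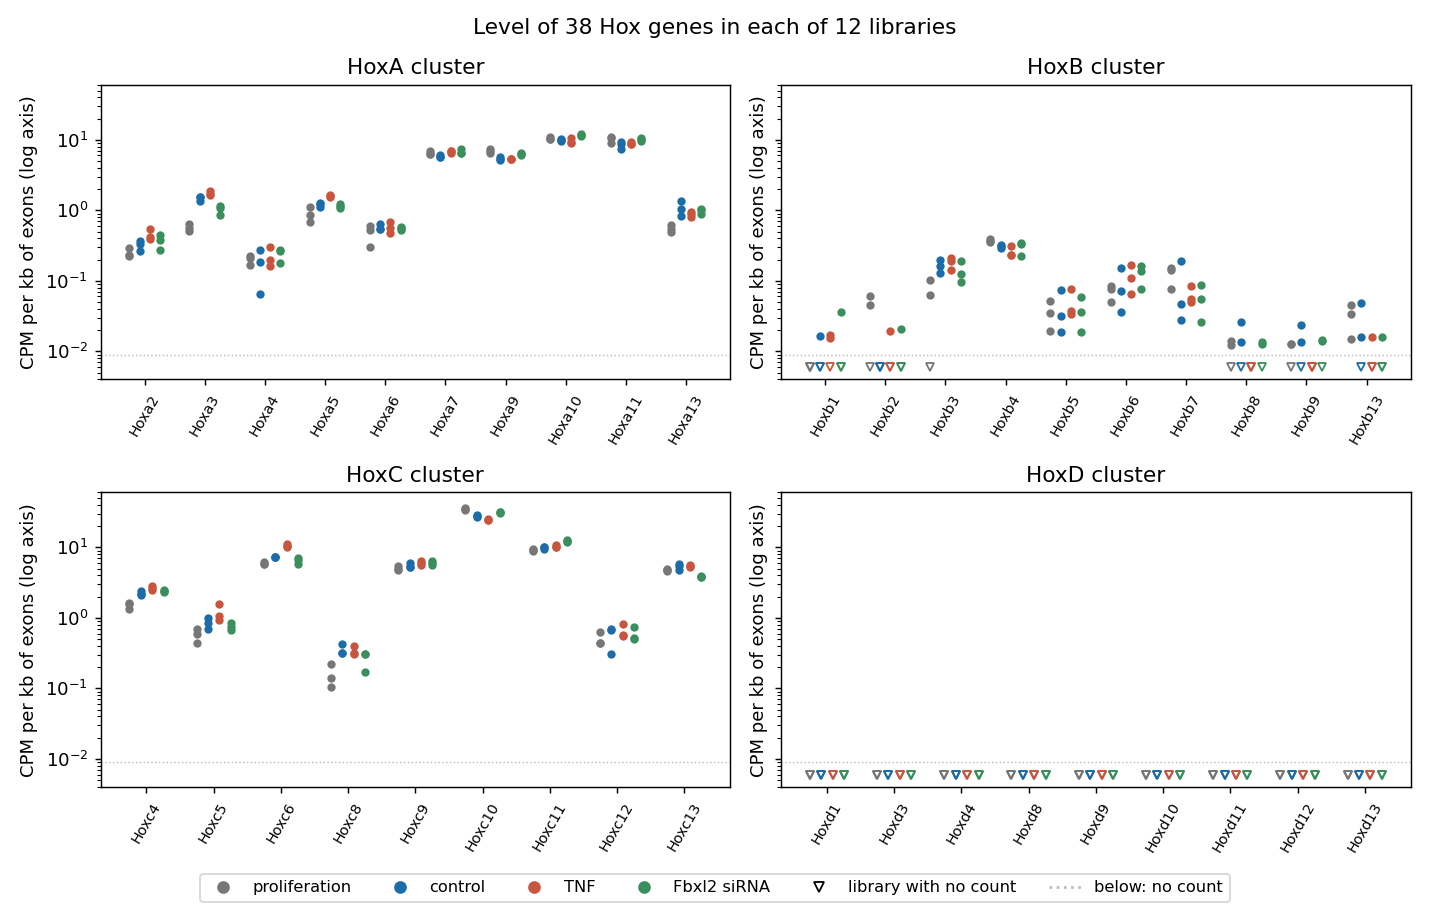
Level of 38 of the 39 Hox genes (CPM per kilobase of exons, log axis) in the 12 libraries, by cluster and coloured by group, with open triangles for libraries without a count. Hoxc10 stands highest and Hoxa4 is the lowest HoxA gene, HoxB genes lie below 1 CPM per kilobase, and all HoxD genes are triangles.

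Expression was concentrated in paralogue groups 9 to 11 of HoxA and HoxC. The 5 genes with the most counts, Hoxc10, Hoxa10, Hoxa11, Hoxc11 and Hoxa9, held 66.7% of Hox counts. Per kilobase of exons, over the 12 libraries, Hoxc10 led at 29.6 CPM, and Hoxa10 at 10.5, Hoxc11 at 10.4 and Hoxa11 at 9.47 CPM followed. Hoxc6 (7.61), Hoxa7 (6.50), Hoxa9 (6.01), Hoxc9 (5.64) and Hoxc13 (4.85 CPM per kilobase) came next. Hoxa4 was the lowest member of HoxA at 0.209 CPM per kilobase, and Hoxc8 the lowest of HoxC at 0.278. HoxB genes reached at most 0.311 CPM per kilobase, in Hoxb4.

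Paralogues, which share a number and descend from 1 ancestral gene, were not equally expressed from HoxA and HoxC. Per kilobase, Hoxc6 was 14 times Hoxa6, Hoxc4 was 10.6 times Hoxa4 and Hoxc13 was 5.57 times Hoxa13. Hoxc10 was 2.83 times Hoxa10. Per kilobase of coding sequence these ratios were 24.95 (Hoxc6), 18.4 (Hoxc4), 6.47 (Hoxc13) and 2.09 (Hoxc10). The ratio was near 1 for group 11, at 1.1 per kilobase of exons and 1.001 per kilobase of coding sequence. For group 9 it was 0.939 per kilobase of exons and 0.720 per kilobase of coding sequence. Group 5 gave 0.696 per kilobase of exons but 1.32 per kilobase of coding sequence, so its direction depends on the length used. These ratios describe 12 libraries and have no test.

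HoxA and HoxC took similar shares of Hox counts in the 4 groups. HoxC took 54.3% ± 0.939 (SD, n = 3) of Hox counts in proliferation, 55.3% ± 0.925 in control, 55.3% ± 0.373 in TNF and 54.0% ± 0.469 in Fbxl2 siRNA. HoxA took 44.9% ± 0.945, 43.8% ± 0.928, 43.9% ± 0.310 and 45.3% ± 0.602 in the same order. HoxB took between 0.734% and 0.862% in the 4 groups, and HoxD took 0%.

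The HoxD cluster (chromosome 2, 74668310 to 74765142, 96.8 kb) is the one that, with HoxA, patterns limb and digits. Its 9 genes are Hoxd1, Hoxd3, Hoxd4 and Hoxd8 to Hoxd13. A total of 348278312 counts over 12 libraries without 1 for a gene allows up to 0.00861 CPM, which is 3 counts, and covers counting error only. Counts were missing over the whole interval: all 13 rows of the table between Evx2, a homeobox gene beside the cluster, and Hoxd1 had no count, the antisense gene Hoxd3os1 and the noncoding gene Haglr included. Genes on both flanks had counts. Mtx2, a mitochondrial gene 60.7 kb beyond Hoxd1, had group means of 52.5 to 64.1 CPM, and Lnp, on the opposite flank, 32.5 to 49.0 CPM. Gm28230 shares exon bases on the same strand with Hoxd3 (68.6% of its exon bases) and Hoxd4 (45.1%), and it also had no count.

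**Figure D2:**
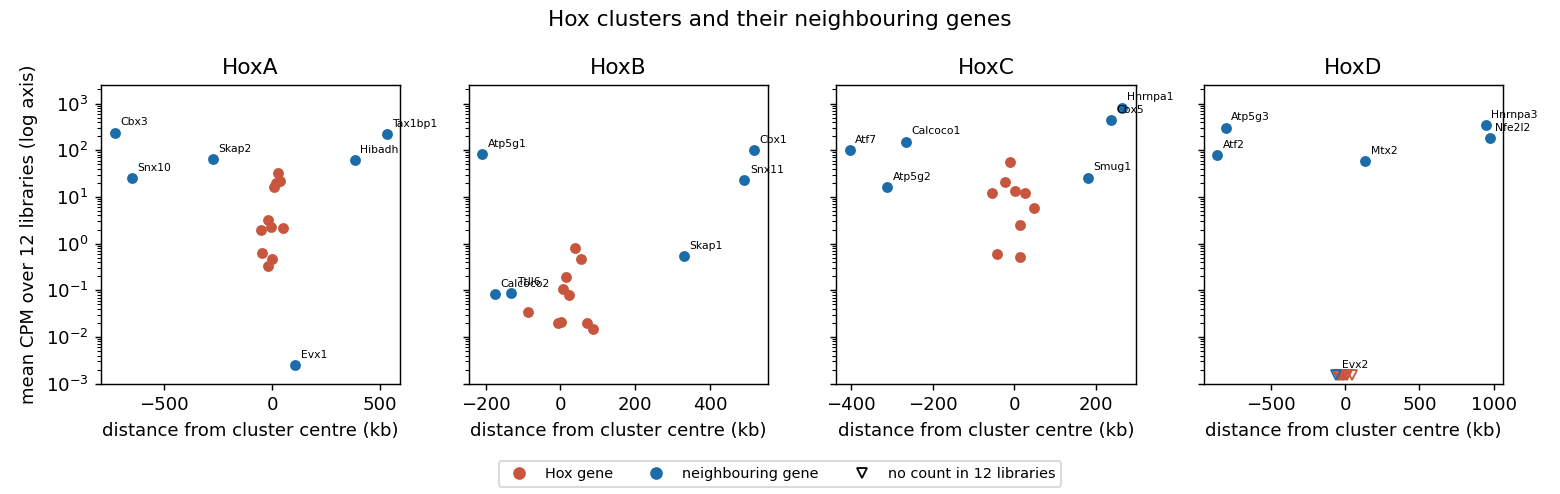
Mean CPM over 12 libraries (log axis) of Hox genes and neighbouring genes against distance from the cluster centre in kilobases, with triangles for genes without a count. In the HoxD panel every Hox gene and Evx2 are triangles, while Mtx2 and Atp5g3 on either side lie above 50 CPM.

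HoxA (chromosome 6, 52155590 to 52260880, 105 kb) and HoxC (chromosome 15, 102921103 to 103036852, 116 kb) contrasted with it in counts. Evx1, the homeobox gene 52.6 kb from HoxA, had 1 count in all 12 libraries. HoxB (chromosome 11, 96194316 to 96368256, 174 kb) lay between. Beside it, Ttll6 had group means of 0.0751 to 0.105 CPM and Calcoco2 of 0.00999 to 0.205 CPM, while Atp5g1 had 71.0 to 106 CPM. Coordinates are those of GRCm38 gene models, the build that mm10 names.

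Promoter sequences are shown for a pair of counted HoxA genes and their HoxD paralogues without a count, to set the letters of genes with and without counts side by side. Each is the 250 bases before the start that RefSeq gives on GRCm38.p6, 5′ to 3′ on the gene's strand, and capitals mark the motif GGGCGG or, on the other strand, CCGCCC (a GC box, the binding motif of SP1 family factors). Hoxa10 (chr6:52234940-52235189, minus strand) lies within the GENCODE span of the gene with no exon base, and Hoxa13 (chr6:52260881-52261130, minus strand) directly before it. Hoxd10 (chr2:74691641-74691890) and Hoxd13 (chr2:74667975-74668224) are on the plus strand, and no exon base lies in either window.
Hoxa10: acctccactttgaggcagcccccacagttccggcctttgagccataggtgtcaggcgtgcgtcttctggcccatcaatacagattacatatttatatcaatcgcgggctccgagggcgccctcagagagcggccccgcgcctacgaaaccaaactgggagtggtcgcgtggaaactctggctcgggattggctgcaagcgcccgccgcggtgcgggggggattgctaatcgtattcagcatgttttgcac
Hoxd10: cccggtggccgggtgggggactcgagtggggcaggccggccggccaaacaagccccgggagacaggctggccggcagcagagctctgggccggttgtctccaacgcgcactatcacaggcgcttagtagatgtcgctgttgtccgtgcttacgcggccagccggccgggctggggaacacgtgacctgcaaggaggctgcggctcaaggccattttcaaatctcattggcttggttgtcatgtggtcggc
Hoxa13: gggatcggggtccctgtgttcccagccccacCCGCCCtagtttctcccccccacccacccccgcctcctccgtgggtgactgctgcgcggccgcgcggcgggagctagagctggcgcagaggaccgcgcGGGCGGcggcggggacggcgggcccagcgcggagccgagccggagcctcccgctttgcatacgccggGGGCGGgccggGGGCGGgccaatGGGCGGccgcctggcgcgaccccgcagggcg
Hoxd13: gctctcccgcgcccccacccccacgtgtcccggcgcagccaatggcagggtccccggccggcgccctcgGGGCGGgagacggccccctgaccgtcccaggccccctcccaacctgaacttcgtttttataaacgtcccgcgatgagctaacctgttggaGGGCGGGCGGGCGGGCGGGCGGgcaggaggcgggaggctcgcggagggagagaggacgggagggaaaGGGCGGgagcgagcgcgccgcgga

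The printed Hoxa10 window and that of Hoxd10 each held 20 CpG sites and no GC box. Hoxa10 has a second start in RefSeq, and the window before it (chr6:52240855-52241104) held 7 CpG sites and 1 GC box at 51.6% GC. The window with more CpG sites was printed. Hoxa13 held 35 CpG sites and 5 GC boxes, and Hoxd13 held 31 and 7, of which several overlap in a run of repeats. Windows were found for 22 Hox genes (24 windows), 10 windows each in HoxA and HoxD, 3 in HoxB and 1 in HoxC. The median GC content was 57% in HoxA and 58% in HoxD windows, against 52.4% over 32851 windows of all genes. The median number of CpG sites was 15.5 in HoxA, 12.5 in HoxD and 6 over all windows. A GC box was found in 4 of 10 windows in each of HoxA and HoxD and in 32.7% of all windows. A match is a description of the letters and not a bound site.

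The first comparison, control against proliferation, asks what changed over 48 h of differentiation. Of the 22 Hox genes tested, 8 were called higher and 4 lower, where 77.2% of all 12736 genes tested were called (38.4% higher and 38.9% lower). The tested Hox genes had lower levels than most genes, with a median of 2.79 CPM against 31.7 CPM. Their median log2 fold change was 0.15, and that of all genes was close to 0. At least a 2-fold change was seen in 3 Hox genes and in 20.3% of all genes.

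Genes of low paralogue number made up most of the rise. Hoxa3, which patterns the pharyngeal arches and thymus, was at 1.68, 1.34 and 1.45 CPM in proliferation, 3.48, 4.0 and 3.99 in control, 4.35, 4.34 and 4.82 in TNF, and 3.02, 2.21 and 2.84 in Fbxl2 siRNA. Every differentiated library lay above every proliferation library. The log2 fold change from proliferation to control was 1.35 ± 0.15 (SE, adjusted p = 7.48e-08). Hoxa3 shares 15.1% of its exon bases with the antisense gene Hoxaas2. Hoxaas2 had 104 counts in all and was not called, at a log2 fold change of 0.82 ± 0.46 (SE) from proliferation to control. Gm28308 on the same strand covers 10.1% of Hoxa3 exon bases, and the antisense genes Gm29430 and Hoxaas3 cover 3.20% and 2.93%. The part of reads from these genes in the Hoxa3 rise was not tested.

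Hoxc8, a gene of thoracic and brachial patterning, was at 0.263, 0.409 and 0.197 CPM in proliferation and 0.599, 0.592 and 0.791 in control. It was at 0.576, 0.736 and 0.602 CPM in TNF and 0.320, 0.579 and 0.567 in Fbxl2 siRNA. Proliferation and control did not overlap. The Fbxl2 siRNA libraries lay below control, by 0.579 against 0.592 CPM at the closest, and overlapped proliferation. Hoxc8 was not called in Fbxl2 siRNA against control, at a log2 fold change of -0.43 (adjusted p = 0.226 in edgeR). The log2 fold change from proliferation to control was 1.19 ± 0.34 (adjusted p = 0.00308). Without the libraries of replicate C it was 0.84 (adjusted p = 0.095), so the call ended.

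Hoxb3 rested on few counts: 11, 6 and 0 in proliferation, 23, 13 and 16 in control, 21, 20 and 14 in TNF, and 19, 13 and 9 in Fbxl2 siRNA. Its log2 fold change from proliferation to control was 1.55 ± 0.50 (adjusted p = 0.00864). Without the libraries of replicate C, whose proliferation library had no count, it was 0.96 (adjusted p = 0.0659). Leaving out proliferation replicate A alone gave 2.41, more than 1.5 times the value with all libraries. Antisense Hoxb3os overlaps 63.9% of the exon bases of Hoxb3, and reads of the gene and its antisense partner cannot be told apart where strand was not used.

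The other genes called higher in control were Hoxa13 (0.95), a gene of the digits, Hoxc4 (0.54), Hoxc5 (0.53), Hoxa5 (0.45), a lung and neck gene, and Hoxc6 (0.30), all as log2 fold changes. Hoxc4 rose from 3.92 ± 0.377 to 5.72 ± 0.377 CPM without overlap. Hoxc5 overlapped between the groups. Hoxa5 lost its call without proliferation replicate A or B or control replicate A or C alone (highest adjusted p = 0.235 over its alternatives), and Hoxc5 without proliferation replicate B or C or control replicate B or C (highest adjusted p = 0.167).

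The genes called lower were among the most abundant, where small changes are more readily called. Among low genes, Hoxb4 at -0.26 ± 0.23 (SE) was not called. Hoxc10, a lumbar and hindlimb gene and the highest of all, was at 64.4, 67.1 and 68.6 CPM in proliferation, 52.5, 50.7 and 54.5 in control, 45.9, 46.7 and 48.0 in TNF, and 59.3, 59.6 and 61.3 in Fbxl2 siRNA. The 4 groups did not overlap, in the order proliferation, Fbxl2 siRNA, control and TNF from high to low. The log2 fold change from proliferation to control was -0.34 ± 0.05 (adjusted p = 8.98e-07).

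Hoxa9, known from blood stem cells and leukaemia, was at 22.3, 24.2 and 21.2 CPM in proliferation and 16.6, 17.2 and 18.3 in control. It was at 17.4, 17.3 and 17.1 CPM in TNF and 20.0, 20.7 and 20.3 in Fbxl2 siRNA. Control and TNF lay together and below the other groups. The log2 fold change to control was -0.38 ± 0.06 (adjusted p = 1.66e-05). Hoxa11 (-0.27) and Hoxa7 (-0.16) were also lower, and 24.8% of Hoxa11 and 23.3% of Hoxa7 exon bases overlap antisense genes. The proliferation and control libraries overlapped in Hoxa11. Hoxa7 lost its call under 11 of 21 alternatives, DESeq2 and RLE scaling included (highest adjusted p = 0.288).

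**Figure D3:**
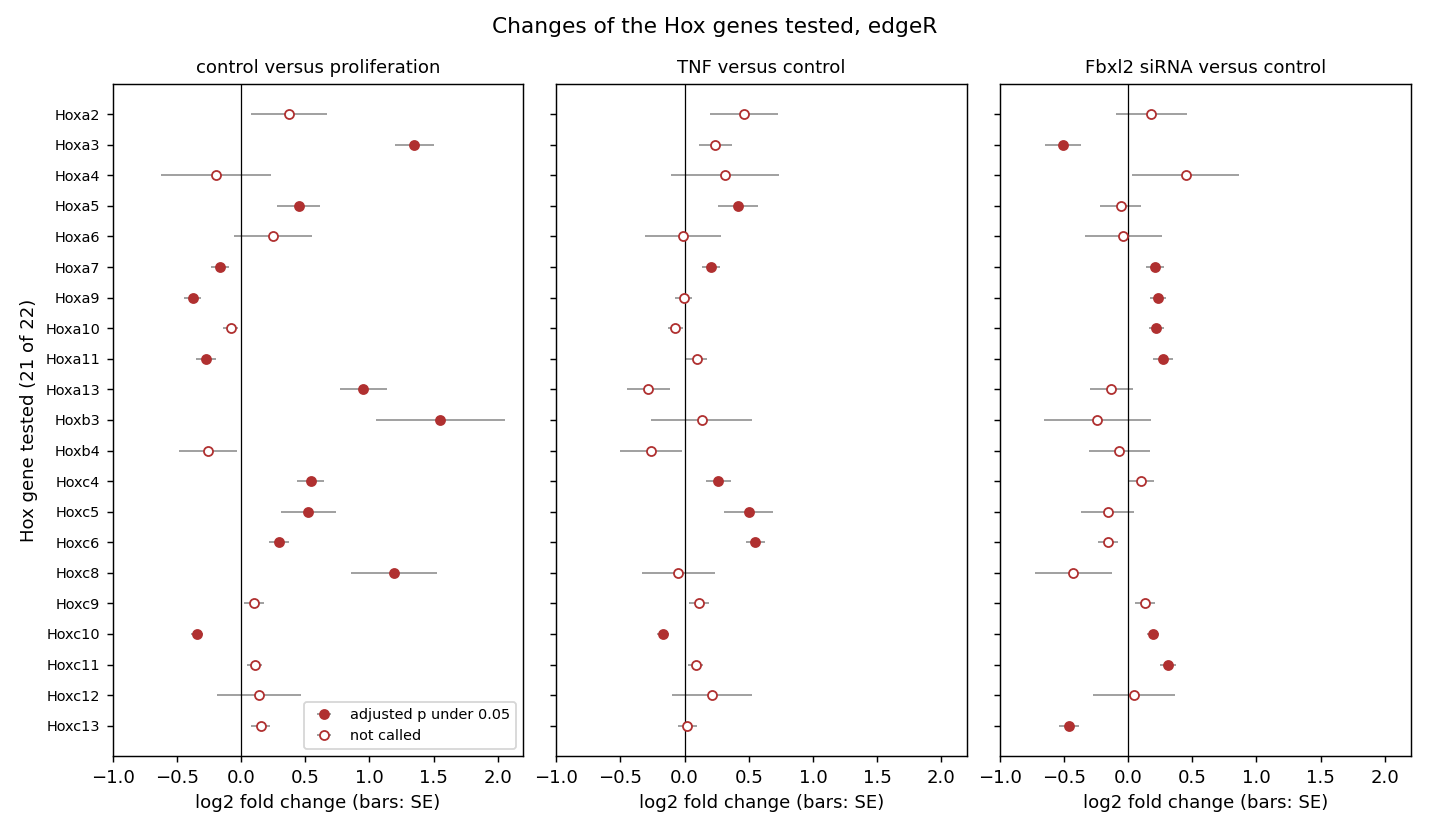
Log2 fold changes (x axis, bars SE) of 21 of the 22 Hox genes tested, with filled points for genes called at an adjusted p under 0.05. Left to right are control against proliferation, TNF against control and Fbxl2 siRNA against control; Hoxa3, Hoxb3 and Hoxc8 are the 3 points past 1 in the left panel, and no gene passes 1 in either of the others.

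By paralogue number, 7 of 13 tested genes of groups 1 to 8 were called higher in control than in proliferation and 1 lower. Of the 9 in groups 9 to 13, 1 was called higher and 3 lower. Over all genes, 38.4% were called higher and 38.9% lower. Summed over all genes of groups 1 to 8, the level went from 39.6 ± 1.01 CPM to 46.1 ± 0.455 CPM. Over groups 9 to 13 it went from 190 ± 4.48 to 170 ± 5.02 CPM. Most of that fall was in Hoxc10, from 66.7 to 52.6 CPM, and 5 of the 9 tested genes had a positive log2 fold change. The libraries of the groups did not overlap in either sum, and both are descriptions with no test.

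TNF against control, both at 48 h, asks what the cytokine does during differentiation. Of 22 Hox genes, 5 were called higher and 1 lower, where 54.6% of all genes were called (31.0% higher and 23.6% lower). None changed by 2-fold, against 10.0% of all genes. Hoxc6, a gene of the thoracic region, had the smallest adjusted p, at 9.27, 9.68 and 9.17 CPM in proliferation, 11.4, 11.6 and 11.6 in control, 16.6, 17.9 and 16.2 in TNF and 10.5, 11.1 and 9.30 in Fbxl2 siRNA. All 3 TNF libraries lay above all 9 others. The log2 fold change over control was 0.55 ± 0.07 (adjusted p = 1.81e-06).

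The others called higher with TNF were Hoxc5 (0.50), Hoxa5 (0.42), Hoxc4 (0.26) and Hoxa7 (0.21), and Hoxc10 was lower (-0.17). All 5 higher genes have paralogue numbers from 4 to 7. DESeq2, run on all 30 Hox genes with a count and so with another filter as well as another test, called 2. Without control replicate B or without TNF replicate B, 2 were called, and 4 without control replicate A or TNF replicate C. Of the 6 calls, that of Hoxc6 held under all 21 alternatives. Hoxa5, Hoxa7, Hoxc4 and Hoxc5 each lost the call without control replicate B alone and without TNF replicate B alone. Hoxa5, Hoxc4 and Hoxc5 also lost it without control replicate A, Hoxa7 without control replicate C, and Hoxa5 and Hoxa7 without TNF replicate C. Over these alternatives the adjusted p reached 0.15 for Hoxa5, 0.224 for Hoxa7, 0.172 for Hoxc4 and 0.295 for Hoxc5. Hoxc5 overlapped between TNF and control, and the others did not. Hoxc10 lost it without all replicate C libraries, at a log2 fold change of -0.16 (adjusted p = 0.0846). Groups 1 to 8 summed to 58.0 ± 2.56 CPM in TNF, above every control library, and groups 9 to 13 to 166 ± 1.83 CPM, overlapping control.

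**Figure D4:**
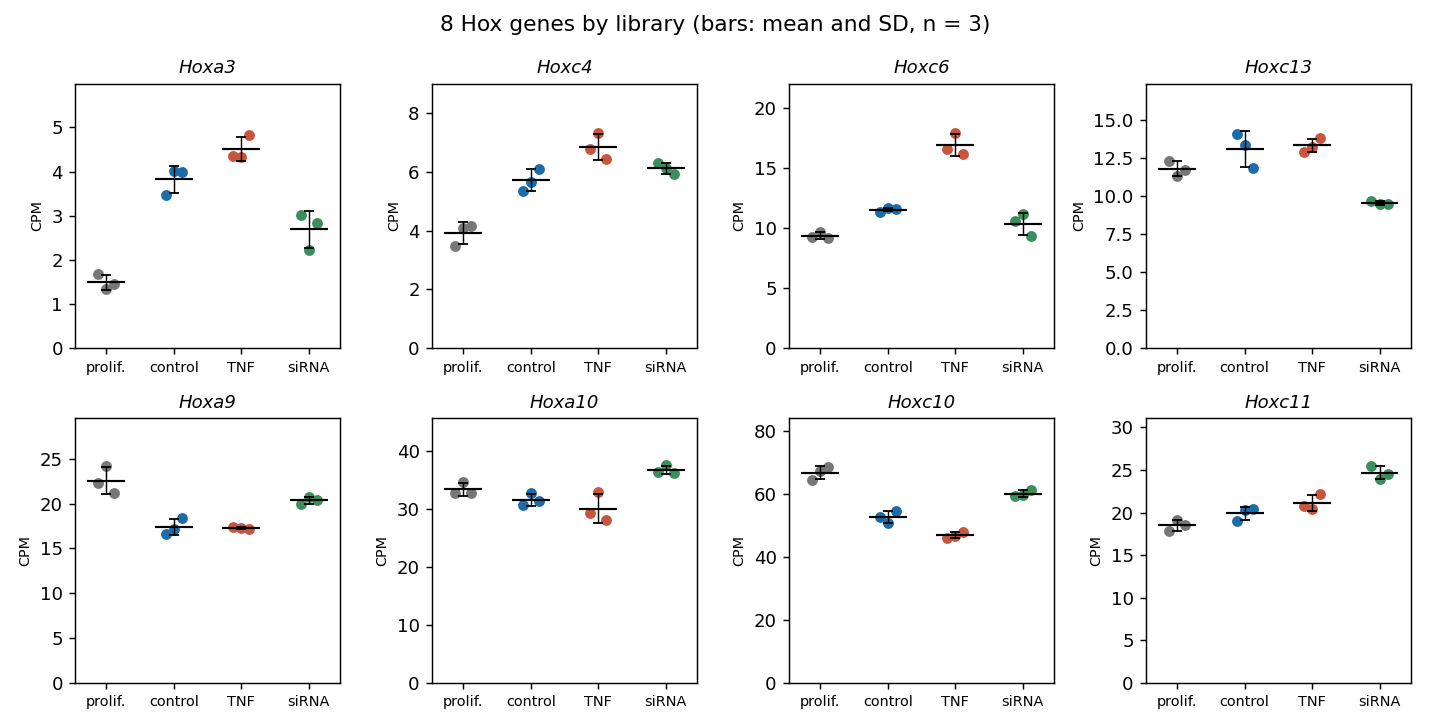
CPM of 8 Hox genes in each library (points), with mean and SD (n = 3) for proliferation (prolif.), control, TNF and Fbxl2 siRNA (siRNA). Hoxc6 stands highest in TNF at 16.2 to 17.9 CPM, Hoxc13 lowest in Fbxl2 siRNA, and Hoxa10 and Hoxc11 highest in Fbxl2 siRNA.

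Fbxl2 siRNA against control gave 6 Hox genes higher and 2 lower of 22, where 63.9% of all genes were called (34.1% higher and 29.8% lower). None changed by 2-fold, against 10.1% of all genes, and the median Hox log2 fold change was 0.00. The genes called higher were abundant members of groups 7 to 11, where small changes are more readily called. Hoxc11 was at 17.8, 19.2 and 18.5 CPM in proliferation, 19.0, 20.3 and 20.4 in control, 20.8, 20.4 and 22.1 in TNF and 25.5, 24.0 and 24.5 in Fbxl2 siRNA. The 3 Fbxl2 siRNA libraries stood above all others, with a log2 fold change over control of 0.31 ± 0.06 (adjusted p = 0.000127).

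Hoxa10, a lumbar and uterine gene, was at 32.7, 34.5 and 32.8 CPM in proliferation, 30.6, 32.7 and 31.4 in control, 29.2, 32.9 and 28 in TNF and 36.4, 37.5 and 36.1 in Fbxl2 siRNA. Its log2 fold change over control was 0.22 ± 0.06 (adjusted p = 0.0029), and Fbxl2 siRNA again lay above every other library. Hoxa11, a gene of the forearm and lower leg, was at 20.8, 24.7 and 24.6 CPM in proliferation, 16.9, 19.9 and 21.3 in control, 20.2, 20.2 and 21.4 in TNF and 22.2, 23.8 and 23.9 in Fbxl2 siRNA. Its log2 fold change over control was 0.27 ± 0.08 (adjusted p = 0.00599) and fell to 0.18 (adjusted p = 0.0616) without control replicate A. Hoxa9 (0.23), Hoxa7 (0.21) and Hoxc10 (0.19) were also called higher. Hoxa7 lost its call without control replicate B or C or Fbxl2 siRNA replicate B alone (highest adjusted p = 0.177).

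The genes called lower were Hoxa3 (-0.51) and Hoxc13 (-0.46). Without all replicate B libraries Hoxa3 was at -0.34 (adjusted p = 0.0811). Hoxc13, a gene of hair and nails, went from 13.1 ± 1.16 CPM in control to 9.54 ± 0.138 CPM, below the 11.8 ± 0.497 CPM of proliferation, and its adjusted p was 2.84e-05. By paralogue number, 5 of 9 genes of groups 9 to 13 were called higher and 1 lower, and 1 of 13 in groups 1 to 8 higher and 1 lower, where 34.1% of all genes were called higher and 29.8% lower. Low counts limit this contrast. The SE was 0.05 to 0.08 in the genes called higher but reached 0.42 in groups 1 to 8. Hoxa4, at 0.45 ± 0.42 (SE), was not called, though its rise was larger than that of any called gene. By sign alone, 7 of 9 and 4 of 13 had a positive log2 fold change. Groups 9 to 13 summed to 192 ± 1.24 CPM, above every control library and within the range of the proliferation libraries (185 to 194 CPM).

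Hoxc9, a thoracic gene, was at 13.1, 11.5 and 11.9 CPM in proliferation, 12.6, 12.4 and 14.1 in control, 15, 13.3 and 14 in TNF and 14.4, 15.1 and 13.2 in Fbxl2 siRNA. It was called in neither treatment against control. Hoxb4, a regulator of blood stem cells, was at 0.957 ± 0.0542 CPM in proliferation, 0.800 ± 0.0411 in control, 0.663 ± 0.118 in TNF and 0.767 ± 0.163 in Fbxl2 siRNA, and was not called in any comparison. Its counts were 28, 25 and 31 in proliferation, 27, 24 and 21 in control, 25, 16 and 17 in TNF and 24, 17 and 23 in Fbxl2 siRNA. Hoxb6 had 3, 4 and 5 counts in proliferation, 10, 4 and 2 in control, 4, 9 and 6 in TNF and 9, 8 and 4 in Fbxl2 siRNA. Its groups overlapped, and it was not tested.

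The 2 treatments were also set directly against each other. TNF had 6 Hox genes higher and 4 lower than Fbxl2 siRNA, where 60.5% of all genes were called (29.9% higher and 30.6% lower). Among those higher with TNF were Hoxa3 (0.75), Hoxc6 (0.71), Hoxc5 (0.66), Hoxc13 (0.48) and Hoxa5 (0.47). Lower were Hoxc10 (-0.36), Hoxa10 (-0.29), Hoxa9 (-0.24) and Hoxc11 (-0.22). Of the higher genes, 5 belong to groups 1 to 8, where none of 13 was lower, and all 4 lower genes to groups 9 to 13. Hoxc5 lost its call without TNF replicate B (adjusted p = 0.0756). Hoxa9 lost it without all replicate C libraries (0.0506), and Hoxa5 without all replicate B or all replicate C libraries (highest 0.0893).

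Fbxl2 siRNA against proliferation gave 7 higher and 3 lower, where 62.0% of all genes were called (30.9% higher and 31.1% lower). This comparison shares the proliferation libraries with the first one. Hoxb3 (1.31), Hoxa3 (0.84), Hoxa13 (0.82), Hoxc4 (0.65) and Hoxc11 (0.42) had the largest rises, followed by Hoxc9 (0.23) and Hoxa10 (0.14). Hoxc13 (-0.31), Hoxc10 (-0.15) and Hoxa9 (-0.15) were lower. Hoxb3 overlapped between the groups and lost its call under 7 of 21 alternatives. Single libraries that ended it were proliferation replicates B and C and Fbxl2 siRNA replicates A and B (highest adjusted p = 0.167). Hoxc9 lost its call without proliferation replicate B or C or Fbxl2 siRNA replicate B (0.178). Hoxa9 lost its call under 15 alternatives (0.219) and Hoxa10 under 14 (0.21), among them leaving out any 1 of the 3 Fbxl2 siRNA libraries, proliferation replicate A, or control replicate A or B. Other single libraries that ended a call were proliferation replicate B and TNF replicate C for Hoxa9, and proliferation replicate C and control replicate C for Hoxa10. Hoxc10 lost its call without all replicate C libraries (adjusted p = 0.0988). Without Fbxl2 siRNA replicate B, 6 genes were called in place of 10.

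All 9 TALE genes were tested. Over all genes, 77.2% were called in control against proliferation, 54.6% in TNF against control and 63.9% in Fbxl2 siRNA against control, and the counts of the lists that follow are to be read beside these shares. In control against proliferation 3 were higher and 2 lower, with Pknox2 at 1.55 and Meis2 at -0.43 on the log2 scale. In TNF against control none was higher and 3 lower, led by Meis2 (-0.56) and Pknox1 (-0.34). In Fbxl2 siRNA against control 2 were higher and 3 lower, with Meis1 at 0.26 and Pknox2 at -0.19.

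Of 17 Polycomb genes, control had 5 higher and 7 lower relative to proliferation (77.2% of all genes called). Ezh2, the H3K27 methyltransferase of dividing cells, was lower by 2.50-fold and its relative Ezh1 was 1.97-fold higher. With TNF 5 were higher against control, among them Eed (0.27) and Ezh2 (0.25), and 3 were lower. The smallest p values were those of Jarid2 (-0.40) and Ezh1 (-0.31). With Fbxl2 siRNA 5 were higher and 7 lower (63.9% of all genes called), with Ezh2 at 0.81 and Ezh1 at -0.35. Of 12 MLL complex and H3K27 demethylase genes, control had 4 higher and 6 lower relative to proliferation, led by Psip1 (-0.89) and Dpy30 (-0.97). Against control, 4 were higher and 2 lower with TNF, with the smallest p in Men1 (0.30), while Kdm6b was lower (-0.53). With Fbxl2 siRNA 3 were higher and 5 lower against control, with the smallest p in Psip1 (0.52) and Dpy30 (0.49), both higher. Among those lower were the methyltransferase genes Kmt2a (-0.61), Kmt2b (-0.33), Kmt2c (-0.71) and Kmt2d (-0.54). The adjusted p of these 4 in edgeR ran from 0.00031 (Kmt2b) to 0.0174 (Kmt2d), against 3.43e-06 for Dpy30. Of 20 noncoding genes listed within the clusters, 3 were in the table and only Hoxaas2 could be tested. Of 14 flanking genes tested, 6 rose and 5 fell from proliferation to control, 5 and 2 from control to TNF, and 5 and 4 from control to Fbxl2 siRNA, beside 77.2%, 54.6% and 63.9% of all genes called.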

How the data were processed

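The deposited table holds the authors' raw read counts (21232 gene symbols, 12 libraries), and 4354 symbols had no count. The submitters' processing notes name CASAVA, DESeq2 and mm10. Aligner, counter, annotation and use of strand: not given in the sources used here. The authors' 3 comparison tables were not used.

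The software was edgeR 4.0.16 on limma 3.58.1, under R 4.3.3. Genes were kept by filterByExpr (12736), libraries scaled by TMM, and 1 robust quasi-likelihood fit covered all 12 libraries, with a mean per group (8 residual degrees of freedom). The test was glmQLFTest, Benjamini-Hochberg adjusted over all genes tested, and genes were called at an adjusted p under 0.05. The SE is the absolute log2 fold change over the square root of F. It can understate the error of low counts. A floor of 3 counts is 0.0911 to 0.114 CPM in a library. Replicates held no identical values, with r of log2 CPM from 0.9937 to 0.9958. Exon and coding lengths came from GENCODE models and promoters from RefSeq, both on GRCm38. The script was tested on simulated data. Alternatives included DESeq2 1.42.0, other filters and scaling, a replicate block and leaving out libraries.

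The members and lists were chosen with earlier results of these data known. Named with values in every library are the 3 members of each cluster with the most counts and those called with a log2 fold change of at least 1. From each further list the 2 members called with the smallest p are named. Genes outside this rule, such as Hoxc6, were named after their values were seen. Values of 1 Hox gene and of some genes of the further lists are not reported here, though group counts include them.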

Additional observations from a re-analysis of the deposited data

How the results depend on the processing

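Of 46 calls of a Hox gene in the 5 comparisons, 24 held under all 21 alternatives and 22 were lost under some, with 0 reversed. The number of Hox genes called in TNF against control was 6, fell to 2 with DESeq2 (run on 30 Hox genes with a count), and ran from 2 to 6 when libraries were left out. In Fbxl2 siRNA against proliferation it was 10 and ran from 6 to 10. In control against proliferation (12) it ran from 8 to 12, in Fbxl2 siRNA against control (8) from 6 to 8 and in TNF against Fbxl2 siRNA (10) from 8 to 11. Labels share the letters A to C, and no clear pairing by letter was seen. Of 18 correlations of same-letter deviations, 3 were over 0.1 (range -0.0957 to 0.183), and 5 of 12 libraries correlated best with their own letter. With 3 libraries per group, these correlations cannot exclude that the letters mark paired libraries. The replicate block gave 12, 6, 8, 11 and 10 calls for control against proliferation, TNF against control, Fbxl2 siRNA against control, TNF against Fbxl2 siRNA and Fbxl2 siRNA against proliferation. Detection gave 30 genes at 3 counts, 24 at 30 counts, and 25 to 26 when a library was left out. Per kilobase of exons, the share of HoxA was 37.6%, 37.0%, 37.3% and 38.2% in proliferation, control, TNF and Fbxl2 siRNA, that of HoxC 61.7%, 62.2%, 62.0% and 61.2%, and that of HoxB in TNF 0.689%. Per kilobase of coding sequence, an alternative chosen after seeing the data, HoxA took 42.7%, 42.5% and 44.4% and HoxC 56.4%, 56.7% and 54.8% in control, TNF and Fbxl2 siRNA, and HoxB 0.870% in proliferation; the change in length unit is the cause by construction. Depth limits HoxB, where 4 detected genes could not be tested, and no difference in HoxD was detectable at this depth.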

Other observations

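Retinoic acid is a known inducer of Hox clusters, and genes of its pathway are given beside the share of all genes called (77.2%, 54.6% and 63.9% of all genes in the 3 comparisons that follow). Of 12 tested, control had 6 higher and 2 lower relative to proliferation. The counts were 1 higher and 5 lower with TNF against control, and 3 higher and 5 lower with Fbxl2 siRNA against control. Stra6, the cell surface receptor that takes up retinol, was at 4.36 ± 0.488 CPM in proliferation, 11.4 ± 0.579 in control, 9.49 ± 0.730 in TNF and 2.49 ± 0.400 in Fbxl2 siRNA. Cyp26b1, which breaks down retinoic acid, was 5.52-fold higher in TNF than in Fbxl2 siRNA (adjusted p = 3.26e-08 in edgeR).

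Other homeobox and limb genes were mostly low. Of 13 homeobox relatives outside the clusters, 6 had no count and 2, Gbx1 and En1, could be tested. Gbx1 was at 0.0904 ± 0.0428 CPM in control and 0.937 ± 0.385 CPM in proliferation. It passed the filter on low counts through the proliferation group, where it was highest, so its call is not used. The control mean lies below the level of 3 counts in a library, so no fold is given. Of 14 limb and axial factors, 5 were tested and 3 had no count. Pax7, the satellite cell factor, was 2.08-fold higher in control than in proliferation. Pax7 was lower than control by 1.48-fold in TNF and by 2.11-fold in Fbxl2 siRNA. Shox2, a gene of the proximal limb, was at 49.7 CPM in proliferation and 40.4 CPM in control.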
